A study of Mus musculus with 6 samples.

Results

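Transcripts of fast and slow muscle fibers were followed through 10 genes of contractile proteins, chosen by name from the 48440 genes of the count table. Of these, 6 encode isoforms of fast fibers (Myh1, Myh2, Myh4, Tnnt3, Tnni2 and Tnnc2) and 4 encode isoforms of slow fibers (Myh7, Tnnt1, Tnni1 and Tnnc1). In striated muscle, the myosin heavy chain is the motor of the thick filament, and its isoform largely sets how fast a fiber shortens. Troponin is the calcium switch of the thin filament. Its T subunit holds the complex on tropomyosin, its I subunit blocks the actin-myosin interaction at rest, and its C subunit binds calcium. Fast and slow fibers draw these proteins from separate genes, so in a tissue that holds muscle fibers the balance of the transcripts describes their types. Under the skin of mice lies a thin sheet of striated muscle, the panniculus carnosus, and whether it was taken with the samples is not given in the sources used here.

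RNA was sequenced from murine subcutaneous tissue that had grown around cartilage engineered from rabbit bone marrow stromal cells (BEC). The paper states that samples were taken with the murine tissues entangled and that reads were mapped to the mouse genome. Whether rabbit RNA was also in the libraries is not given in the sources used here. The hosts were BALB/c nude mice, which lack a thymus, bought as young adult males. BEC was wrapped in electrospun PCL/collagen membranes without drug (0%-Axitinib group, 3 samples) or loaded with 3% axitinib, an inhibitor of the VEGF receptor kinases (3%-Axitinib group, 3 samples), and tissue was collected 12 weeks after implantation in both groups. The first group carries the label untreated, and it is called 0%-Axitinib here since the design text of the series names that group. Each mouse received 2 constructs of its group, and which mouse gave which sample is not given, so n counts samples and the p-values measure the spread between them. Reads counted on genes numbered 17761968, 16716411 and 18005908 in 0%-Axitinib replicates 1, 2 and 3, and 9225518, 11686084 and 18403795 in 3%-Axitinib replicates 1, 2 and 3. Levels are given as CPM, counts scaled to library size after TMM normalization. Levels of different genes are compared per kilobase of exon, apart from ranks said to be in CPM and sums of CPM over a list. A count of 3, taken as the limit of detection, was between 0.157 and 0.33 CPM. This limit and all intervals of shares and ratios cover counting error only.

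Reads of the 10 genes were concentrated in a few libraries. They made up 0.688% of the reads on genes in 3%-Axitinib replicate 1 (exact Clopper-Pearson 95% interval 0.682 to 0.693) and 0.392% in replicate 3 (0.389 to 0.395). In 3%-Axitinib replicate 2 the share was 0.00175% (0.00152 to 0.00201), which lay inside the range of the 0%-Axitinib group. The shares there were 0.00799% (0.00758 to 0.00842), 0.000664% (0.000546 to 0.0008) and 0.00268% (0.00244 to 0.00293) in replicates 1, 2 and 3. Fast isoforms held 97.9% and 99.2% of the summed level per kilobase in 3%-Axitinib replicates 1 and 3, against 52.0% in replicate 2. In the 0%-Axitinib replicates 1, 2 and 3, they held 89.3%, 60.5% and 24.3%. In bulk tissue, a smaller number of muscle fibers and less RNA in each fiber cannot be told apart.

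General markers of skeletal muscle followed the same libraries. The 14 markers summed to 112, 30.6 and 28.7 CPM in 0%-Axitinib replicates 1, 2 and 3, against 9339, 31.2 and 4550 CPM in 3%-Axitinib replicates 1, 2 and 3. Acta1 (skeletal actin) was the most abundant over all samples. The highest in CPM was Ryr1 in 0%-Axitinib replicate 2, and Des in 0%-Axitinib replicate 3 and 3%-Axitinib replicate 2. The number of markers without a read was 0, 4 and 5 in the 0%-Axitinib samples and 0, 5 and 0 in the 3%-Axitinib samples. Among the markers, myoglobin gene Mb had the highest log2 fold change (8.99, standard error 2.44) and Ryr1, the calcium release channel, the lowest (3.84, standard error 1.24). These markers were thus high in the libraries where the fast members were high, and the part of muscle tissue in the differences between the groups was not tested.

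**Figure D1:**
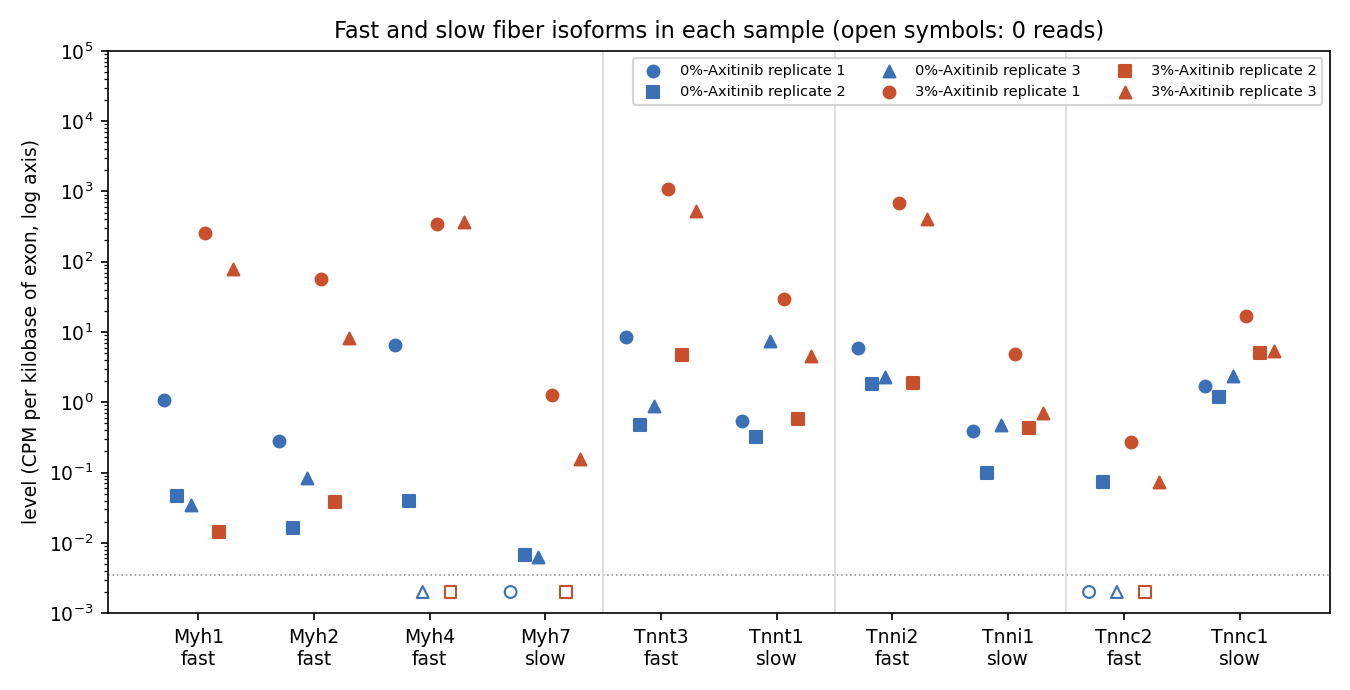
Level of each isoform gene in each of the 6 samples, in CPM per kilobase of exon on a log axis, ordered by protein family, with 0 reads drawn as open symbols under the dotted line. The fast genes Myh1, Myh2, Myh4, Tnnt3 and Tnni2 reach high levels in 3%-Axitinib replicates 1 and 3 alone, while Tnnc1 separates the groups and Tnnc2 is near 0 in every sample.

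The fast myosin heavy chain genes lie side by side on the plus strand of chromosome 11 (GRCm38), Myh2 from 67171027 to 67197517, Myh1 from 67200052 to 67224575 and Myh4 from 67238029 to 67260446. Myh4 encodes the type IIb chain, that of the fastest fibers of the mouse. Its level was 38.8, 0.233 and 0 CPM in 0%-Axitinib replicates 1, 2 and 3, against 2088, 0 and 2188 CPM in 3%-Axitinib replicates 1, 2 and 3. A count of 0 allows up to 0.163 CPM in the 0%-Axitinib sample and 0.273 CPM in the 3%-Axitinib sample. The groups overlapped, since 3%-Axitinib replicate 2 held no read of Myh4 while 0%-Axitinib replicate 1 held 744. The log2 fold change of Myh4 was 6.77 (standard error 3.20, adjusted p = 0.25, edgeR quasi-likelihood test over 15257 genes). It was 6.18 if 0%-Axitinib replicate 3 was left out, and 13.51 without replicate 1 of that group. The value of 13.51 stands against 4 and 0 reads and depends on the prior count.

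Myh1 encodes the type IIx chain, which is slower than IIb and faster than IIa. Its level was 6.73, 0.292 and 0.217 CPM in the 0%-Axitinib samples, against 1634, 0.0911 and 496 CPM in the 3%-Axitinib samples, in replicate order. Replicates 1 and 3 of the 3%-Axitinib group were high, and replicate 2 held 1 read. The log2 fold change of Myh1 was 8.19 (standard error 2.74, adjusted p = 0.148, edgeR). Myh2 encodes the type IIa chain of fast oxidative fibers. Its level was 2.04, 0.117 and 0.597 CPM in the 0%-Axitinib samples, against 408, 0.273 and 59.4 CPM in the 3%-Axitinib samples. The same pair of 3%-Axitinib libraries stood above the rest, and the log2 fold change of Myh2 was 7.38 (standard error 2.17, adjusted p = 0.126, edgeR). Without 3%-Axitinib replicate 1 the log2 fold changes of Myh1 and Myh2 were 6.66 and 5.0, and without 0%-Axitinib replicate 1 they were 11.4 and 8.71. Windows of 100 bases found in no other gene made up 85.9% of Myh1, 90.4% of Myh2 and 96.1% of Myh4, so reads on the other positions cannot be assigned to 1 gene by sequence. Myh1 also shares 515 of its 6353 exon bases with the antisense gene Myhas, and Myh2 shares 237 of its 7137 exon bases with 9430073C21Rik. Whether counting used the strand is not given in the sources used here.

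Myh7, on the minus strand of chromosome 14 from 54970684 to 54994626, encodes the slow type I chain, which is also a chain of the heart. It had 0, 1 and 1 reads in the 0%-Axitinib samples and 99, 0 and 23 reads in the 3%-Axitinib samples. Slow myosin was thus read in the same 3%-Axitinib libraries as fast myosin, at far lower numbers. Of its windows 89.8% are unique, the closest partner being the heart gene Myh6. Of its 8616 exon bases, 523 are shared with the antisense gene Gm31251, 484 with Mhrt and 142 with Gm29015. Myh7 had reads enough in 2 libraries, the expression filter asks for 3, and it was not tested. Without the filter, edgeR's log2 fold change for Myh7 was 6.47 with a standard error of 1.75 (adjusted p = 0.119), and it was between 5.95 and 7.09 in the 4 fits without 1 sample in which Myh7 passed. Such a fit against 0, 1 and 1 reads depends on the prior count. Over the summed libraries of each group, 122 reads against 2 gave a ratio of 89.4 for the 3%-Axitinib to the 0%-Axitinib group, with an exact interval from counting error alone of 24.2 to 746. Without 3%-Axitinib replicate 1, which held 99 of the 122 reads, the ratio was 22.3 (5.5 to 195), an alternative chosen after seeing the data. In 0%-Axitinib replicate 1, which held 912 reads of fast myosin, no read of Myh7 was counted.

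Per kilobase of exon, the fast chains outnumbered the slow chain by a factor of 523 in 3%-Axitinib replicate 1 (exact 95% interval 430 to 644). In 3%-Axitinib replicate 3 the factor was 2912 (1940 to 4594). The intervals do not meet, so the balance differed between these libraries by more than counting error. In 0%-Axitinib replicate 1, without a read of Myh7, the exact lower limit was 348, and the ratio was 429 with Myh7 set to 3 counts. The ratios of 14.9 (2.17 to 642) and 18.7 (2.88 to 787) in 0%-Axitinib replicates 2 and 3 rested on 12 and 16 reads. Such wide intervals do not set them apart from the ratio in 3%-Axitinib replicate 1. They end below the interval of 3%-Axitinib replicate 3 (1940 to 4594). With only 4 reads of fast myosin and none of Myh7, 3%-Axitinib replicate 2 allowed no ratio.

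The make-up of the fast chains differed as well. Of the summed level of the 4 myosin genes per kilobase, Myh4 held 52.4% in 3%-Axitinib replicate 1 and 80.8% in replicate 3. Myh1 held 38.8% and 17.3%, and Myh2 held 8.62% and 1.85%, in the same order. Myh7 held 0.191% and 0.0343%. Replicate 1 thus had larger shares of the IIx, IIa and slow chains, and replicate 3 a larger share of IIb. As shares of the reads themselves, Myh4 took 50.4% (exact interval 49.9 to 50.9) in replicate 1 and 79.7% (79.4 to 80.1) in replicate 3. In 0%-Axitinib replicate 1, Myh4 held 82.8% of the level per kilobase and 81.6% of 912 reads (78.9 to 84.0), Myh1 13.6% and Myh2 3.66% of the level. Myh7 had 0 of these reads, a share of up to 0.329% at the limit of 3 counts and of up to 0.404% by the exact interval.

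**Figure D2:**
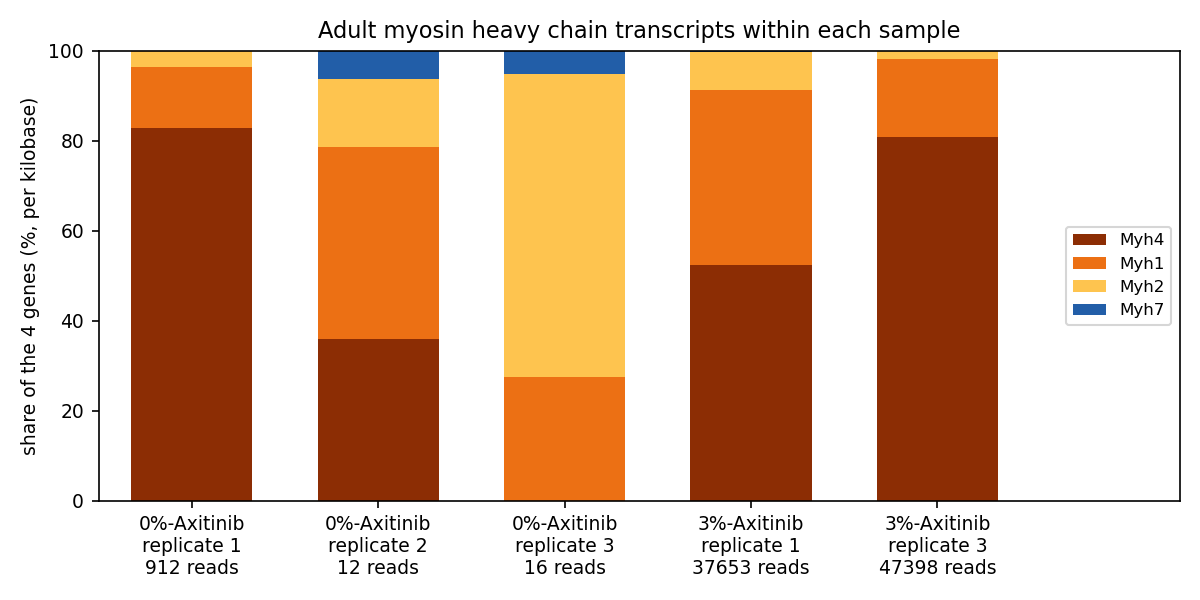
Share of Myh4, Myh1, Myh2 and Myh7 in the summed level of these 4 genes per kilobase of exon, in percent, for the 5 samples with at least 10 reads of them (number of reads under each bar). Myh4 holds 52.4% in 3%-Axitinib replicate 1 and 80.8% in replicate 3, and the bars of 0%-Axitinib replicates 2 and 3 rest on 12 and 16 reads.

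Among the troponin T genes, Tnnt3 encodes the fast subunit and Tnnt1 the slow one. Both lie on chromosome 7, Tnnt3 from 142498836 to 142516009 and Tnnt1 from 4504570 to 4516382. The level of Tnnt3 was 13.3, 0.758 and 1.41 CPM in the 0%-Axitinib samples, against 1705, 7.38 and 821 CPM in the 3%-Axitinib samples. Its 81 reads made Tnnt3 the fast member with the most reads in 3%-Axitinib replicate 2, yet the level there lay below that of 0%-Axitinib replicate 1. The log2 fold change of Tnnt3 was 7.35 (standard error 2.07, adjusted p = 0.119, edgeR), and it was 6.32 without 3%-Axitinib replicate 1, or 9.59 if 0%-Axitinib replicate 1 was left out. The level of Tnnt1 was 1.20, 0.70 and 16.3 CPM in the 0%-Axitinib samples, against 65.5, 1.28 and 9.96 CPM in the 3%-Axitinib samples. Its second highest level was that of 0%-Axitinib replicate 3, a library with 1 read of Myh7 and none of Myh4. The log2 fold change of Tnnt1 was 2.07 (standard error 1.55, adjusted p = 0.439, edgeR), and it was -0.07 without 3%-Axitinib replicate 1, or 4.71 if 0%-Axitinib replicate 3 was left out.

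The troponin T balance leaned to the fast gene in 3%-Axitinib replicates 1 and 3, with ratios per kilobase of 36.2 (exact 95% interval 33.4 to 39.4) and 115 (98.8 to 134). In 3%-Axitinib replicate 2 the ratio was 8.05 (4.54 to 15.4). In the 0%-Axitinib group, replicate 1 had a ratio of 15.4 (10.0 to 24.7) and replicate 2 one of 1.51 (0.634 to 3.62), whose interval includes equal levels. Replicate 3 was reversed, with 26 reads of Tnnt3, 300 of Tnnt1 and a ratio of 0.121 (0.0775 to 0.18). That library held 16 reads of the 4 adult myosin genes and 1 of Acta1. Whether its troponin reads came from muscle fibers was not tested, so the ratio is not read as a fiber type.

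The inhibitory subunit is encoded by Tnni2 in fast fibers (chromosome 7, 142441808 to 142444410, close to Tnnt3) and by Tnni1 in slow fibers (chromosome 1, 135779434 to 135810989). The level of Tnni2 was 8.82, 2.68 and 3.42 CPM in the 0%-Axitinib samples, against 1030, 2.82 and 596 CPM in the 3%-Axitinib samples. Unlike the myosin genes, Tnni2 was read at least 31 times in every library, also where myosin was near 0. The log2 fold change of Tnni2 was 6.77 (standard error 1.80, adjusted p = 0.11, edgeR), and it was 5.91 without 3%-Axitinib replicate 1, or 7.47 if 0%-Axitinib replicate 1 was left out. Without 3%-Axitinib replicate 2 it was 7.34 with an adjusted p of 0.0325. Over all alternatives, the adjusted p of Tnni2 ran from 0.000809 (DESeq2) to 0.357 (limma-voom). The level of Tnni1 was 1.41, 0.35 and 1.68 CPM in the 0%-Axitinib samples, against 17.7, 1.55 and 2.55 CPM in the 3%-Axitinib samples. Only 3%-Axitinib replicate 1 stood far above the others, and the log2 fold change of Tnni1 was 2.64 (standard error 1.05, adjusted p = 0.191, edgeR), and 0.84 without that sample.

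For troponin I, the ratio of fast to slow per kilobase was 140 (exact 95% interval 120 to 164) in 3%-Axitinib replicate 1 and 563 (419 to 775) in replicate 3. In 3%-Axitinib replicate 2 it was 4.38 (2.35 to 8.45). The 0%-Axitinib samples had ratios of 15.1 (9.99 to 23.5), 18.4 (7.85 to 52.8) and 4.89 (3.13 to 7.77). By exon length Tnni2 thus exceeded Tnni1 in each of the 6 libraries. Because the coding sequence of Tnni1 is a small part of its exons, this ratio depends on the length used, and with coding length it was 55.6 and 224 in 3%-Axitinib replicates 1 and 3. In 3%-Axitinib replicate 2 it was then 1.74 (0.935 to 3.36), an interval that includes equal levels, and in 0%-Axitinib replicate 3 it was 1.94 (1.24 to 3.09).

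The calcium-binding subunit is encoded by Tnnc1 in slow and heart muscle (chromosome 14, 31208312 to 31211729) and by Tnnc2 in fast muscle (chromosome 2, 164777161 to 164779967). The level of Tnnc1 was 1.77, 1.22 and 2.5 CPM in the 0%-Axitinib samples, against 17.4, 5.28 and 5.56 CPM in the 3%-Axitinib samples. Tnnc1 was the only tested member whose groups did not overlap, all 3%-Axitinib samples being the higher ones, a separation found in 14.7% of all tested genes. It includes 3%-Axitinib replicate 2, where 58 reads of Tnnc1 stood beside 4 reads of myosin. The log2 fold change of Tnnc1 was 2.35 (standard error 0.59, adjusted p = 0.103, edgeR), and it was 1.57 without 3%-Axitinib replicate 1. The gene lies within the span of Nisch on the opposite strand without sharing exon bases. Nisch itself had 446, 517 and 257 CPM in the 0%-Axitinib samples, against 434, 408 and 510 CPM in the 3%-Axitinib samples.

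Tnnc2 had 0, 1 and 0 reads in the 0%-Axitinib samples and 2, 0 and 1 reads in the 3%-Axitinib samples, so that both groups were at or under the limit of detection and no fold is given. The ratio of Tnnc2 to Tnnc1 per kilobase was 0.0165 (exact 95% interval 0.00198 to 0.0605) in 3%-Axitinib replicate 1 and 0.0135 (0.00034 to 0.0773) in replicate 3. Troponin C was thus the one subunit whose counts leaned to the slow gene in libraries where the other families leaned to the fast gene. Of the 800 exon bases of Tnnc2, 592 (74.0%) are also exon bases of Ube2c on the opposite strand. Ube2c had 5.85, 6.24 and 144 CPM in the 0%-Axitinib samples, against 1.65, 16.6 and 5.44 CPM in the 3%-Axitinib samples. Reads on overlapping genes, which STAR gives to neither, were between 3.55% and 5.74% of a library. Their part in the low counts of Tnnc2 was not tested, and the troponin C ratio is uncertain for this reason. An alternative chosen after seeing the data divided all counted reads of Tnnc2 by the 208 bases it does not share. It takes all these reads to lie on those bases, and where they lay is not known. The ratios were then 0.0634 and 0.0521 in 3%-Axitinib replicates 1 and 3, with upper limits of 0.233 and 0.297. In 0%-Axitinib replicate 2 the ratio was then 0.238 with an upper limit of 1.48, which includes equal levels, and the samples without a read of Tnnc2 had upper limits of 0.574, 0.418 and 0.329.

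**Figure D3:**
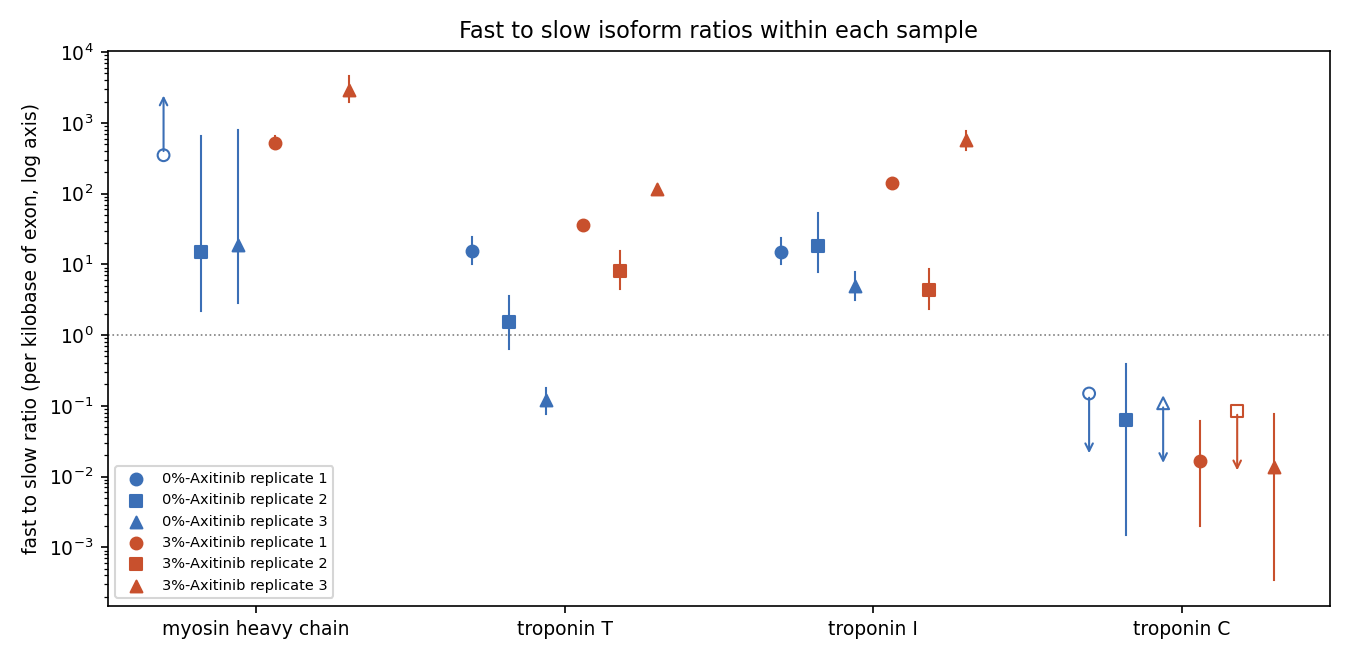
Fast to slow ratio of transcripts per kilobase of exon on a log axis, for each protein family and sample, with exact 95% intervals from counting error and open symbols with arrows where 1 of the isoforms had 0 reads. The ratios of 3%-Axitinib replicate 3 exceed those of replicate 1 for myosin heavy chain, troponin T and troponin I, and all troponin C values lie under 1.

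The balance was compared between the groups by an exact two-sided permutation test of the mean log2 ratio, whose smallest p is 0.1 with 3 samples against 3, so that no difference could reach 0.05. The mean log2 ratio of troponin T was 4.99 ± 1.94 with axitinib and 0.49 ± 3.47 without it (SD, n = 3 each). The difference was 4.50 (exact permutation p = 0.2, adjusted p = 0.6 over 3 tests). For troponin I the means were 6.12 ± 3.61 and 3.42 ± 1.00 (SD, n = 3 each), a difference of 2.70 (exact permutation p = 0.4, adjusted p = 0.6). Troponin C, the third of these tests, had 0 to 2 reads of Tnnc2 in a sample, so that the added 0.5 sets its log2 ratios and no difference is read from it. For troponin I the SD in the 3%-Axitinib group was larger than the difference between the groups. The group means include 0%-Axitinib replicates 2 and 3 and 3%-Axitinib replicate 2, where Acta1 had 5, 1 and 1 reads. Whether troponin reads in those libraries came from muscle fibers was not tested. Myosin heavy chain was not tested because 3%-Axitinib replicate 2 had fewer than 10 reads of it.

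The members were also set against the 14 muscle markers of the same library. Tnnt3 reached 21.6%, 9.43% and 18.1% of the summed marker level per kilobase in 0%-Axitinib replicates 1, 2 and 3, against 24.8%, 63.4% and 25.1% in the 3%-Axitinib replicates. Tnni2 reached 15.2%, 35.3% and 46.5%, against 15.9%, 25.7% and 19.3%, in the same order. Myh4 reached 16.7%, 0.764% and 0%, against 8.0%, 0% and 17.6%. The markers themselves had 2137, 525 and 528 reads in the 0%-Axitinib samples, against 84923, 343 and 78579 in the 3%-Axitinib samples. The markers had few reads in 0%-Axitinib replicates 2 and 3 and in 3%-Axitinib replicate 2. Des held 201 of 525, 246 of 528 and 238 of 343 marker reads there, and Acta1 held 5, 1 and 1. In 3%-Axitinib replicates 1 and 3, Acta1 held 35682 and 31979. The percentages of the low libraries are thus set against a marker sum of another make-up, and are not levels relative to muscle fibers. In these libraries the slow genes Tnnt1, Tnni1 and Tnnc1 stood higher against the markers, and so did the fast gene Tnni2. Tnnt3 did so in 3%-Axitinib replicate 2 only, and Myh7 had 0 or 1 reads there, too few to place. Tnnt1 reached 1.41%, 6.25% and 150%, against 0.686%, 7.88% and 0.219%, in the same order. Tnni1 reached 1.01%, 1.91% and 9.5%, against 0.113%, 5.85% and 0.0343%. Tnnc1 reached 4.41%, 23.2% and 48.8%, against 0.385%, 69.1% and 0.258%. The slow genes Myh7, Tnnt1 and Tnni1 were higher in 3%-Axitinib replicate 1 than in replicate 3 on this scale by factors of 3.90, 3.13 and 3.31, Myh2 by 3.27, Myh1 by 1.57 and Tnnc1 by 1.49. With 1 library on each side, these factors have no replicate check.

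Across the members, 8 of 10 passed the expression filter, 5 of the 6 fast and 3 of the 4 slow ones. In the edgeR test 0 members reached the adjusted threshold of 0.05, as did 0.00655% of all tested genes, and 6 members had an unadjusted p at or under 0.05, as did 23.5% of all tested genes. DESeq2's Wald test put 6 members and 12.9% of all tested genes past the adjusted threshold and gave no adjusted p for Myh4. With limma-voom 0 members and 0.0131% of all tested genes were past it. The study's criterion, which asks for a 1.5-fold change or more and a P-value no higher than 0.05 (taken as unadjusted here), was met upward by 6 members, 4 fast (Myh1, Myh2, Tnnt3 and Tnni2) and 2 slow (Tnni1 and Tnnc1), and by 9.54% of all tested genes. With limma-voom it was met upward by 0 fast members, 1 slow member (Tnnc1) and 9.62% of all tested genes. The 5 tested fast members had a median log2 fold change of 7.35 and a range from 6.77 to 8.19. The 3 tested slow members had a median of 2.35 and a range from 2.07 to 2.64. The filter left out Myh7 and Tnnc2, and without it the 6 fast members had a median of 7.02 and the 4 slow members one of 2.47. Myh7 was then near the fast members. The fitted value of Tnnc2, which rests on 0 to 2 reads in a sample, enters the fast median and lay below those of the slow members. The median over all tested genes was -0.03, and -0.16 when libraries were scaled by total counts, a shift that changed no direction among the members. These medians are a description.

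All 9 other fast fiber genes met the criterion upward (9.54% of all tested genes), with a median log2 fold change of 6.07. With the replicate block 7 of the 9 met it (8.19% of all tested genes), with limma-voom 0 did (9.62% of all tested genes), and between 4 and 9 did when a sample was left out. Atp2a1, the calcium pump of fast fibers, was the most abundant and had the highest log2 fold change (7.09, standard error 2.70), and Tmod4, which caps thin filaments, had the lowest (2.17, standard error 0.76). Of the 10 other slow fiber genes, 8 were tested and 5 met the criterion upward (9.54% of all tested genes), with a median of 2.60. It was met by 3 with the block (8.19%) and by 3 with limma-voom (9.62%). Without 3%-Axitinib replicate 1 it was met by 1 (1057 of 15878 genes). Slow myosin-binding protein Mybpc1 had the highest value (7.23, standard error 2.21), inside the range of the fast members (6.77 to 8.19). Tpm3, a tropomyosin also made outside muscle, had the lowest (-0.33, standard error 0.18). Like Tpm3, the most abundant gene of this list, the calcium pump gene Atp2a2, had similar levels everywhere, from 135 to 221 CPM. The summed level of this slow list was 369, 402 and 310 CPM in the 0%-Axitinib samples, against 824, 305 and 461 CPM in the 3%-Axitinib samples. In 3%-Axitinib replicate 1 its highest gene in CPM was Mybpc1, at 300 CPM.

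Of 9 genes for isoforms of developing, heart and eye muscle, 6 were tested and 3 met the criterion upward (9.54% of all tested genes), with a median log2 fold change of 3.03. The embryonic chain Myh3 had the highest value (3.46, standard error 1.48), heart troponin gene Tnni3 the lowest (0.57, standard error 0.39). The light chain gene Myl4 was highest in CPM and Tnni3 per kilobase. With limma-voom 1 of the 6 met the criterion (9.62% of all tested genes), and with the replicate number as a block 2 (8.19%). With total counts 1 did (989 of 15257 genes), and with DESeq2 4 (1627 of 15257 genes). It was met by 5 of 7 without 3%-Axitinib replicate 2 (1270 of 15940 genes). Without 3%-Axitinib replicate 1 it was met by 0 (1057 of 15878 genes), and the median was 1.04. The neonatal chain Myh8, named after its values were seen, had 0, 0 and 0.38 CPM in the 0%-Axitinib samples, against 34.4, 0 and 6.20 CPM in the 3%-Axitinib samples. None of the 5 myogenic precursor markers passed the filter. They summed to 0, 0 and 0.163 CPM in the 0%-Axitinib samples, against 27.4, 0 and 5.21 CPM in the 3%-Axitinib samples. The regulator of differentiation Myog was the most abundant over all samples. In 3%-Axitinib replicate 3, Myod1 was higher in CPM (1.969, against 1.795 for Myog). Nonmuscle Myh9 was the most abundant of 4 smooth muscle and nonmuscle heavy chains, at 646 to 965 CPM, and 1 of these 4, Myh14, met the criterion upward.

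The 5 smooth muscle markers summed to between 204 and 555 CPM, with Rgs5 highest in CPM and Tagln per kilobase, and 0 met the criterion upward and 1 downward. Of the 4 keratinocyte markers, Krt1 highest in CPM and Krt10 per kilobase, 1 was tested, Krt10, and it met the criterion downward. It did not with limma-voom, with the replicate block or without any 1 of the 3%-Axitinib samples, and DESeq2 gave it no p-value. Its log2 fold change turned to 0.52 without 0%-Axitinib replicate 2. The sum of the 4 was 785 CPM in that sample and at most 6.74 CPM elsewhere. The 4 adipocyte markers, Cidec highest in CPM and Adipoq per kilobase, summed to 55.8, 50.3 and 45.2 CPM in the 0%-Axitinib samples, against 49.1, 1.18 and 9.32 CPM in the 3%-Axitinib samples. Of these 4, 1 met the criterion downward, as did 4 of the 4 endothelial markers, led by Pecam1, and 11.7% of all tested genes. With limma-voom 4 adipocyte and 3 endothelial markers met it downward, against 9.73% of all tested genes. Among the 4 cartilage markers, Comp was highest over all samples. Col2a1 was highest in CPM in 0%-Axitinib replicate 3 and 3%-Axitinib replicates 2 and 3. Of these 4 markers 3 were tested, and 2 met the criterion upward (9.54% of all tested genes). The sum of the 4 was highest in 3%-Axitinib replicate 2 (1100 CPM). The 4 Schwann cell markers, Mbp highest in CPM, summed to 1041, 252 and 162 CPM in the 0%-Axitinib samples, against 1250, 1266 and 1101 CPM in the 3%-Axitinib samples, and 1 met the criterion upward (4 with limma-voom and 4 with the block, 0 with total counts, and from 0 to 4 when a sample was left out, with 0 in the absence of 0%-Axitinib replicate 2 or of any 3%-Axitinib sample). Groups that did not overlap, with 3%-Axitinib higher as for Tnnc1, were found in 14.7% of all tested genes. They were found for 3 of the 4 Schwann cell markers and 1 of the 3 tested cartilage markers. The other fiber lists held 3 such genes among 8 tested slow ones and 1 among 9 fast ones. There was also 1 among 6 tested genes of the developmental and heart list, 1 among the 4 smooth muscle and nonmuscle heavy chains and 1 among the 14 skeletal muscle markers. Replicate 2 of the 3%-Axitinib group thus held Schwann cell and cartilage markers at levels as high as the other 3%-Axitinib samples while holding few fiber transcripts and the lowest adipocyte sum. The part of these cell types in the members' values was not tested.

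Genes were also compared with the members in pattern and not in level, with log2 CPM over the 6 samples centred on each profile's own mean. The fast mean took in all 6 fast members, Tnnc2 included, and the slow mean all 4 slow members, Myh7 included. The genes compared were 14335 tested genes other than the members, with a mean of at least 1 CPM. The 5 closest in pattern to the mean of the fast members included Cacna1s, Mypn, Xirp2 and Apobec2. Their root mean square differences were 0.21, 0.27, 0.36 and 0.39, against a median of 3.88 over all these genes. Cacna1s encodes the calcium channel of the muscle membrane, and Mypn and Xirp2 encode proteins of the sarcomere. The genes closest in pattern to the mean of the slow members were Jph1, Plin5, Popdc2, Tnnt2 and Prob1. Their differences were 0.38, 0.42, 0.49, 0.57 and 0.58, against a median of 1.80. Tnnt2 encodes troponin T of the heart, and Jph1 ties the muscle membrane to its calcium store.

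The fast myosin genes were high in the same libraries, and their promoters were compared with that of Myh7. Promoters (250 bases before to 50 after the gene's start) were taken from RefSeq on GRCm38.p6, where 8 of the 10 members matched, all but Tnni2 and Tnnt3. The E-box CANNTG, searched on both strands, was found in 6 of these 8 genes, and in 72.3% of all 32851 promoters. TATAAA was found in 4 (Myh1, Myh2, Myh4 and Tnnt1), against 13.6% of all promoters. The MEF2 motif was found in 2 (Myh1 and Myh4), against 3.19%, and 2 of the matches of different motifs overlapped each other. The longest run shared by the promoters of Myh1, Myh2 and Myh4, sought after the sequences were seen, was the 20 bases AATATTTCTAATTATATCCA. It began 165, 130 and 163 bases before RefSeq's starts of Myh1, Myh2 and Myh4 (67200102, 67171027 and 67237812), which for Myh1 and Myh4 differ from the GENCODE starts above. It occurred in 3 of all 32851 promoters (0.00913%), those of these genes. The sequences are shown so that the shared run, in capitals, can be seen in its context, and it is not in the promoter of Myh7. They are chr11:67199852-67200151 (Myh1), chr11:67170777-67171076 (Myh2) and chr11:67237562-67237861 (Myh4) on the plus strand and chr14:54994577-54994876 (Myh7) on the minus strand, each written 5′ to 3′.
Myh1: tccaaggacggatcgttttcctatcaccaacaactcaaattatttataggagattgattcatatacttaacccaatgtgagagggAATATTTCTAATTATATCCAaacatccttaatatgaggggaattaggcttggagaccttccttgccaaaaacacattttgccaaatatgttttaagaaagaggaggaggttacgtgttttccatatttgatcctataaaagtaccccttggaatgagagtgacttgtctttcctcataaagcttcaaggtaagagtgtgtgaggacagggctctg
Myh2: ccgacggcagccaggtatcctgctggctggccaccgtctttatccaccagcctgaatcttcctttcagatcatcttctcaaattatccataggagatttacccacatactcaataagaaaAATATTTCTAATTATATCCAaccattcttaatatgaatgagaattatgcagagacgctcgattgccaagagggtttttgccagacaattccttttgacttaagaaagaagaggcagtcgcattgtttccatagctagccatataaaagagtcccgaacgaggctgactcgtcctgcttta
Myh4: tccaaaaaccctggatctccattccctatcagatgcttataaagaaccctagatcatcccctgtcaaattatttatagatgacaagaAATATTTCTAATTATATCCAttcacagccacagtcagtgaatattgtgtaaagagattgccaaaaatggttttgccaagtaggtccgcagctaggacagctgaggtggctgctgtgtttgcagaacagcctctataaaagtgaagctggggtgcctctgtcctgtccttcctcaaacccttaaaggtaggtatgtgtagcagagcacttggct
Myh7: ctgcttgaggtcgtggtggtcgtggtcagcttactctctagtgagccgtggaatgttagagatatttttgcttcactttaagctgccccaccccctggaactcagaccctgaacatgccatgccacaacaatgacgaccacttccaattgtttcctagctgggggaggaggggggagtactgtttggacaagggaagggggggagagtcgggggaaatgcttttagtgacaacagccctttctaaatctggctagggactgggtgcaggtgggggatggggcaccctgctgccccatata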

How the data were processed

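The authors selected poly(A) RNA, filtered the reads with fastp, mapped them to mm10 (GRCm38) with STAR (2.5.2b per the submitters' processing notes) and deposited unnormalized read counts per gene symbol. The annotation release and the strand setting are not given in the sources used here. The 4 lines of reads that STAR gave to no gene were left out of library sizes and tests. The analysis used edgeR 4.0.16 under R 4.3.3: filterByExpr (minimum count 10, minimum total 15), TMM, quasi-likelihood test of 3%-Axitinib against 0%-Axitinib, and Benjamini-Hochberg adjustment over 15257 genes. The test was tried on counts simulated with the same dispersion for all genes, so the trial does not cover genes as uneven within a group as the members. log2 CPM used a prior count of 2. Exon lengths and overlaps came from GENCODE M21. Ratios were formed where a family had at least 10 reads, and 0.5 was added to each count for log2 ratios between groups.

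Genes named by rule were the 10 members, the most abundant gene and the genes of highest and lowest log2 fold change of each list (for other cell types and heavy chains outside striated muscle only the most abundant in CPM and per kilobase), and the 5 genes most like the mean of the fast and of the slow members. Of the genes this rule gives, 2 are not reported here. Myh8, Myh14 and the genes overlapping members were named after the data were seen. The members and lists were chosen with earlier results of these data known. Alternatives used DESeq2 1.42.0 (size factors, Wald test), limma 3.58.1 (voom), total counts, other filters, a threshold of 0.1, the replicate number as a block, other gene lengths, and each sample left out in turn.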

Additional observations from a re-analysis of the deposited data

Results flagged for a closer look

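The share of unmapped reads, which no comparison of the isoform genes uses, was larger in every 3%-Axitinib library than in every 0%-Axitinib library. Its median was 29.2% in the 3%-Axitinib group (range 16.8% to 48.4%) and 5.47% in the 0%-Axitinib group (range 3.84% to 14.9%). The library with the most reads of slow isoforms, 3%-Axitinib replicate 1, had the share of 48.4% and the fewest reads on genes. The species of the unmapped reads, rabbit or mouse, and their part in the members' values were not tested.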

How the results depend on the processing

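Across 100 alternative values of single members, 99 were higher in the 3%-Axitinib group, and the exception was Tnnt1, at -0.067 without 3%-Axitinib replicate 1 (4.71 without 0%-Axitinib replicate 3). All are refits of the same libraries, and each keeps 3%-Axitinib replicate 1 or 3, where most members were high. The number is thus no independent check of the direction. Members past the adjusted threshold numbered 0 in the edgeR test, 6 with DESeq2's Wald test (1961 of all 15257 genes), 0 with limma-voom (2 of all genes), 0 with the threshold at 0.1, and 0 to 1 when a sample was left out (1, Tnni2, in the absence of 3%-Axitinib replicate 2, with 58 of 15940 genes; 0 members and 1252 of 15690 genes in the absence of 0%-Axitinib replicate 3). The study's criterion was met by 6 members, by 1 with limma-voom, by 3 with at least 10 counts in every sample, where 4 members were tested, and by 5 to 8 when a sample was left out. Over all genes it was met upward by 1456 of 15257, by 1467 with limma-voom and by 1271 of 13035 with at least 10 counts. With a sample left out, these calls ran from 1055 of 15871 genes (0%-Axitinib replicate 2) to 2274 of 15690 (0%-Axitinib replicate 3). The median log2 fold change without 1 sample was between 6.32 and 9.59 for fast and between 0.84 and 3.86 for slow members, the lowest of both without 3%-Axitinib replicate 1. The value of 3.86, without 0%-Axitinib replicate 3, also counts Myh7, which then passes the filter, and for the same 3 slow members it was 3.00. The difference in mean log2 ratio was then between 2.74 and 6.21 for troponin T, between 1.20 and 4.70 for troponin I and between -1.31 and 0.036 for troponin C, where leaving out 0%-Axitinib replicate 2 turned the sign and 0 to 2 reads of Tnnc2 allow no reading. The causes were not tested.

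With the replicate block, 6 members met the criterion, as did 8.19% of all tested genes upward, and 0 members passed the adjusted threshold. The medians were 6.74 for fast and 2.13 for slow members. The samples share only a number: deviations of same-numbered samples had correlations of 0.18, -0.12 and -0.17 over 15257 genes, and not every sample correlated best with its own number. Adjusted calls over all genes went from 1 to 2 with the block.

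Gene length moved the ratios without turning them. In 3%-Axitinib replicate 1, the ratios were 378 for myosin heavy chain, 24.2 for troponin T and 55.6 for troponin I with coding length, and 379, 26.0 and 58.2 as plain counts. In 3%-Axitinib replicate 3, troponin T was at 76.8 and 82.5 and troponin I at 224 and 234 in the same order. The share of Myh1 was 39.4% with coding length and 41.2% with unique positions in replicate 1, and 18.0% and 19.0% in replicate 3. The share of Myh4 was 50.5% and 49.8% in replicate 1, and 79.8% and 79.1% in replicate 3. Here the length itself is what changed. Myh7 and Tnnc2 had at most 1 read in any 0%-Axitinib sample.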
